A study of Mus musculus with 50 samples.

Results

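The transcripts of the cytosolic ribosomal proteins, the protein subunits of the ribosomes that translate nuclear mRNAs, were followed across 5 groups of mice in RNA from frontal cortex synaptosomes. Genes were taken by symbol (Rpl, Rps or Rplp with a number), and a gene with several probes was represented by the probe with the highest mean signal. The symbols of 60 genes, with 75 probes, met this rule. Rpl17 and Rps23 were at background on all 50 arrays and were left out, so that 58 genes remained of the 18120 gene symbols on the array. Of these, 55 were above background on all 50 arrays and entered the tests, 30 from the large and 25 from the small subunit, so none was tested only because it was high in some group. The other 3 did not pass the filter for dim probes: Rplp2 was above background on 7 arrays, and Rpl6 and Rpl14 on 1 array each. Rpl11, Rplp0 and Rpsa are not analysed here.

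Synaptosomes are resealed nerve terminals released when brain tissue is homogenised, and each of the 50 Illumina bead arrays held the RNA of 1 mouse. The mice were Sod2 knockouts or wild types of the CD1 background, aged 17 to 21 days. Sod2 encodes a mitochondrial superoxide dismutase, and the knockout was constitutive, so it was not restricted to neurons. The groups were 9 untreated wild types, 10 knockouts and 11 wild types given 1 mg/kg of the compound, and 10 knockouts and 10 wild types given 30 mg/kg. The compound, a salen manganese antioxidant, is called EUK8 in the sample titles and EUK189 in the treatment field. Every knockout had received it, so no comparison here shows the knockout without the compound or the compound in knockouts against none. The arrays lay on 7 chips, of which chip 2 held 2 wild-type arrays and no knockout.

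Array medians of the deposited signal ranged from 54.12 to 78.02, and 10147 to 12312 of the 25697 probes lay above background on an array. The Sod2 probe gave median log2 levels of 9.64 in untreated wild types, 10.17 in knockouts and 9.79 in wild types at 1 mg/kg, and 10.08 in knockouts and 9.89 in wild types at 30 mg/kg. The position of this probe relative to the deletion was not known here, and its signal therefore checks no genotype label. All 9 tested markers of synaptic terminals were above background on every array, and so were all 10 astrocyte and all 12 microglial markers, so the preparations also held RNA of other cells. In such mixed samples fewer cells of a type and less RNA per cell cannot be told apart.

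Each eukaryotic ribosome is built from a large and a small subunit, assembled in the nucleolus from ribosomal RNA and a single copy of most ribosomal proteins. The mRNAs of nearly all of these proteins begin with a run of pyrimidines, the terminal oligopyrimidine (TOP) motif, through which the kinase complex mTORC1 adjusts their translation as a group. In neurons many of these mRNAs are found in axons and dendrites, where locally made ribosomal proteins can join existing ribosomes.

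The start sites of the 8 genes with a call below and an entry in the table are shown for their pyrimidine content. Each window holds 50 bases of the RefSeq promoter table (build GRCm38.p6), 30 before and 20 from the annotated start, on the transcribed strand, and capitals mark runs of 6 or more C or T.
Rpl27a: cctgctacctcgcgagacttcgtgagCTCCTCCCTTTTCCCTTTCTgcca
Rpl7a: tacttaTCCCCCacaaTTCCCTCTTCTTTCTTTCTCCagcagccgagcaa
Rpl37: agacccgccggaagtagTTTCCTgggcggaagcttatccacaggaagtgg
Rpl41: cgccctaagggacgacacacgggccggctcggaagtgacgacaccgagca
Rpl10: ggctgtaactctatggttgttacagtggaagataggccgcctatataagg
Rpl22: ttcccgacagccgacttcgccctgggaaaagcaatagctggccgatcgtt
Rpl23: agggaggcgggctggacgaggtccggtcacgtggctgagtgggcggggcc
Rpl9: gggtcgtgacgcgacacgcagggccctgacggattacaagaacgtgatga
They lie at chr7:109519165-109519214 (plus strand), chr2:26910777-26910826 (plus), chr15:5116583-5116632 (plus), chr10:128549149-128549198 (minus), chrX:74270786-74270835 (plus), chr4:152325696-152325745 (plus), chr11:97782420-97782469 (minus) and chr5:65391412-65391461 (minus). Rpl27a and Rpl7a carried pyrimidine runs of 20 and 21 bases across the start, and Rpl7a held a second, shorter run before it. Rpl37 held a run of 6 before its start, and the other 5 windows held none. The table had a start for 45 of the 58 genes, and Rpl21 and Rplp1 were not among them. A run of 6 or more C or T stood in this window in 30 of the 45 (66.7%), against 44.8% of all promoters. On the opposite strand such a run stood in 42.2%, against 46.8% of all. A C followed by 4 pyrimidines began within 5 bases of the start in 21 of these 45 promoters (46.7%), against 18.5% of all 27025 promoters in the table. The letters CTTTC stood within 20 bases of the start on the transcribed strand in 15 (33.3%), against 5.38% of all, and on the opposite strand in 2 (4.44%), against 4.7% of all. The letters CCGGAAG, a core of sites bound by ETS factors, were present on either strand of the 300-base promoter in 18 (40%), against 9.12% of all. These letters are a description, since annotated starts can lie some bases away from the starts used in brain.

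A set of 3 arrays stood apart in the levels of ribosomal protein genes, LWT-37 among them in some single genes more than in the mean. Levels are log2 signals after background correction and quantile normalisation. The mean over the 55 genes was 10.53 on the array LKO-30, replicate 30 of the knockouts at 1 mg/kg, where the other 9 arrays of that group lay between 11.05 and 11.38. On HWT-13, a wild type at 30 mg/kg, it was 10.85, where the next lowest array of that group had 11.1. On LWT-37, a wild type at 1 mg/kg, it was 10.99, close to the next lowest of its group at 11.08. On LKO-30, 45 of the 55 genes lay below the median of the other arrays of their group, with a median difference of −0.79 over all 55, and 32 genes had their lowest level of all 50 arrays there. The genes did not shift together on this array: the difference was −1.91 for Rps26 and 1.01 for Rps2. On HWT-13, 43 genes lay below their group, with a median difference of −0.44 over all 55. On LWT-37, 34 lay below and 21 above, with a median difference of only −0.1, and single genes there differed by −1.27 to 0.63. LKO-30 correlated with the other arrays with a median r of 0.946 over all tested probes, against 0.965 for HWT-13 and 0.973 for LWT-37. The rest of the knockouts at 1 mg/kg gave 0.954 to 0.973. The rest of the wild types gave 0.976 to 0.979 at 30 mg/kg and 0.964 to 0.98 at 1 mg/kg. Results that rest on these arrays are given with and without them, a choice made after the data were seen.

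The group means of the ribosomal protein genes lay close together. Their mean level over the 55 genes was 11.22 ± 0.089 in the 9 untreated wild types (± gives the SD), 11.17 ± 0.244 (n = 10) in knockouts and 11.16 ± 0.0826 (n = 11) in wild types at 1 mg/kg, and 11.29 ± 0.1 (n = 10) in knockouts and 11.17 ± 0.144 (n = 10) in wild types at 30 mg/kg. As a share of the summed signal of an array before normalisation, the 55 probes gave 5.98 ± 0.336% in untreated wild types, 5.56 ± 0.909% in knockouts and 5.46 ± 0.474% in wild types at 1 mg/kg, and 6.3 ± 0.475% in knockouts and 5.65 ± 0.741% in wild types at 30 mg/kg. The arrays of every group overlapped those of every other group on both measures.

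**Figure D1:**
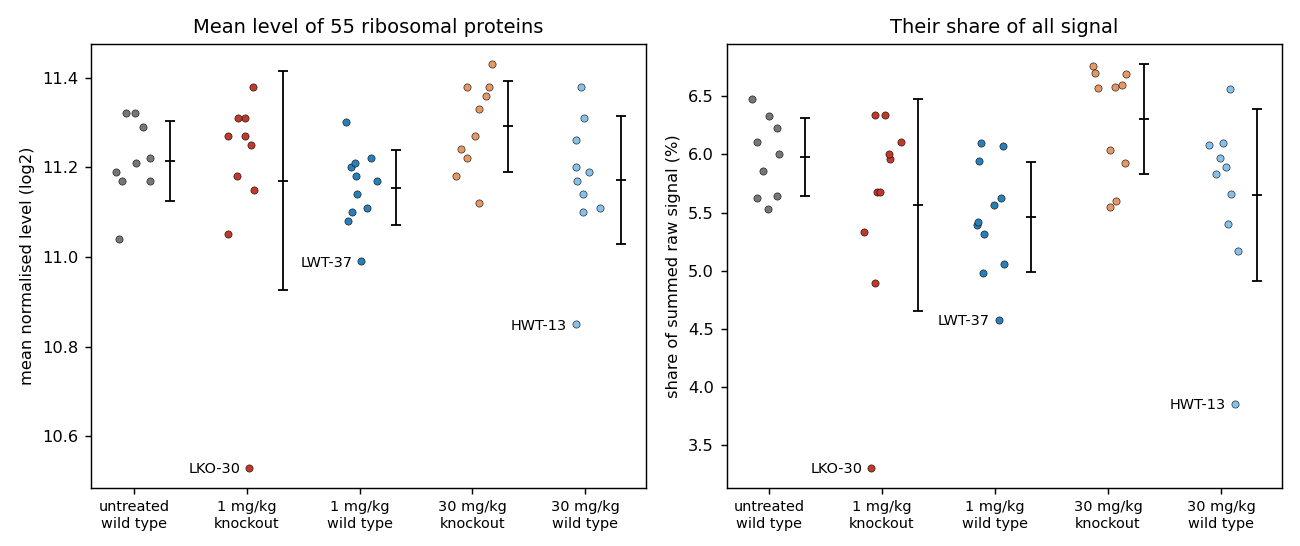
Mean normalised log2 level of 55 ribosomal protein genes (left) and their share of the summed raw signal in percent (right), 1 point per array, with the mean and SD of each group beside its points. LKO-30 lies lowest on both, at 10.53 and 3.31%, and the knockouts at 30 mg/kg have the highest group mean, 11.29 and 6.3%.

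The first comparison asked what loss of Sod2 does at 1 mg/kg. Of the 55 ribosomal protein genes, 1 rose and 1 fell in knockouts against wild types at this dose (limma, adjusted p under 0.05), or 3.64%, where 20.9% of all 13435 tested probes were called, 10.8% rising and 10.1% falling. The median change of the 55 was 0.02 on the log2 scale, the median over all tested probes 0, and 28 of the 55 lay above 0. The 95% interval of the change stayed within 0.5 log2 units of 0 for 53 of the 55 genes, so changes of that size were outside the interval for nearly all of them.

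Rpl21, a large-subunit protein, was the member that rose. Its lowest, median and highest log2 levels were 5.96, 6.29 and 6.51 in knockouts at 1 mg/kg, against 5.42, 5.92 and 6.12 in wild types at 1 mg/kg. All 10 knockouts lay above the wild-type mean, while the ranges overlapped. The fitted change was 0.33 ± 0.0919 (SE), a 1.26-fold rise (limma adjusted p = 0.00718), and within chips the difference was above 0 on 5 of the 6 chips that held both groups and 0 on the other. This probe was dim, with a mean signal of 96.03, and the second, equally dim Rpl21 probe changed by 0.21 (adjusted p = 0.179).

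Rpl41, the smallest ribosomal protein, was the member that fell. It measured 13.19, 14.19 and 14.37 (lowest, median and highest log2 level) in knockouts at 1 mg/kg, against 13.75, 14.46 and 14.6 in wild types at 1 mg/kg. No knockout lay above the wild-type mean, and the lowest value of each group was on LKO-30 and LWT-37. The change was −0.32 ± 0.108 (adjusted p = 0.0284), and it was −0.23 without LKO-30 (adjusted p = 0.0529) and −0.28 without the 3 arrays named above (adjusted p = 0.00104). Rpl41 ranked 1 to 24 by brightness on the arrays, and quantile normalisation, which replaces a signal by the mean at its rank, left it only 10 distinct levels on 50 arrays. With the authors' deposited log2 values its change was −0.18 (adjusted p = 0.364).

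Leaving out LKO-30 gave 3 rises and no fall among the 55 genes in this comparison, with a median of 0.08. Leaving out the 3 arrays gave 5 rises, Rpl21 among them, and 1 fall, in Rpl41, with a median of 0.06. Of the 13435 tested probes 2666 were called without LKO-30 and 2718 without the 3 arrays.

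At 30 mg/kg the same genotypes were compared at the higher dose. None of the 55 genes passed the test in knockouts against wild types at 30 mg/kg. Of all tested probes 0.581% passed, 0.380% rising and 0.201% falling. An unadjusted limma p under 0.05 was found for 8 of the 55 genes and for 1509 of the 13435 tested probes. The changes of the 55 ran from −0.06 to 0.37 with a median of 0.12, against a median of −0.01 over all tested probes. Of the 55, 50 lay above 0, where 6440 of the 13435 tested probes did. Without the 3 arrays 47 lay above 0, with a median of 0.09. Within chips the median of the 55 was above 0 on 4 of 6 chips and ranged from −0.07 to 0.24.

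Rpl10, a large-subunit protein that joins late in assembly near the catalytic centre, had the smallest p of these genes at 30 mg/kg. Its lowest, median and highest levels were 11.55, 11.9 and 12.38 in knockouts, against 11.29, 11.78 and 11.93 in wild types. The highest knockouts lay above all wild types and the rest overlapped them. The change was 0.23 ± 0.0747 (limma adjusted p = 0.148), and 7 of 10 knockouts exceeded the mean of the wild types. Rps3a, a small-subunit protein, followed with 7.53, 8.2 and 9.48 in knockouts and 7.54, 8.03 and 8.73 in wild types, a difference of 0.37 ± 0.139 (adjusted p = 0.245). Rps3a was among the genes with a wide spread inside every group.

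The difference between the genotype effects at 30 and 1 mg/kg (the interaction) passed for none of the 55 genes. Of all tested probes 2.96% passed (0.856% rising, 2.11% falling). An unadjusted limma p under 0.05 was found for 4 of the 55 genes and for 2146 of the 13435 tested probes. Rpl10 gave 0.28 ± 0.105 (adjusted p = 0.142) and Rpl21 −0.34 ± 0.129 (adjusted p = 0.144). The median was 0.09, with 46 genes above 0, and 0.05 without LKO-30, with 38 above 0. The interval stayed within 0.5 of 0 for 38 of the 55, so this comparison was less precise than the others.

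**Figure D2:**
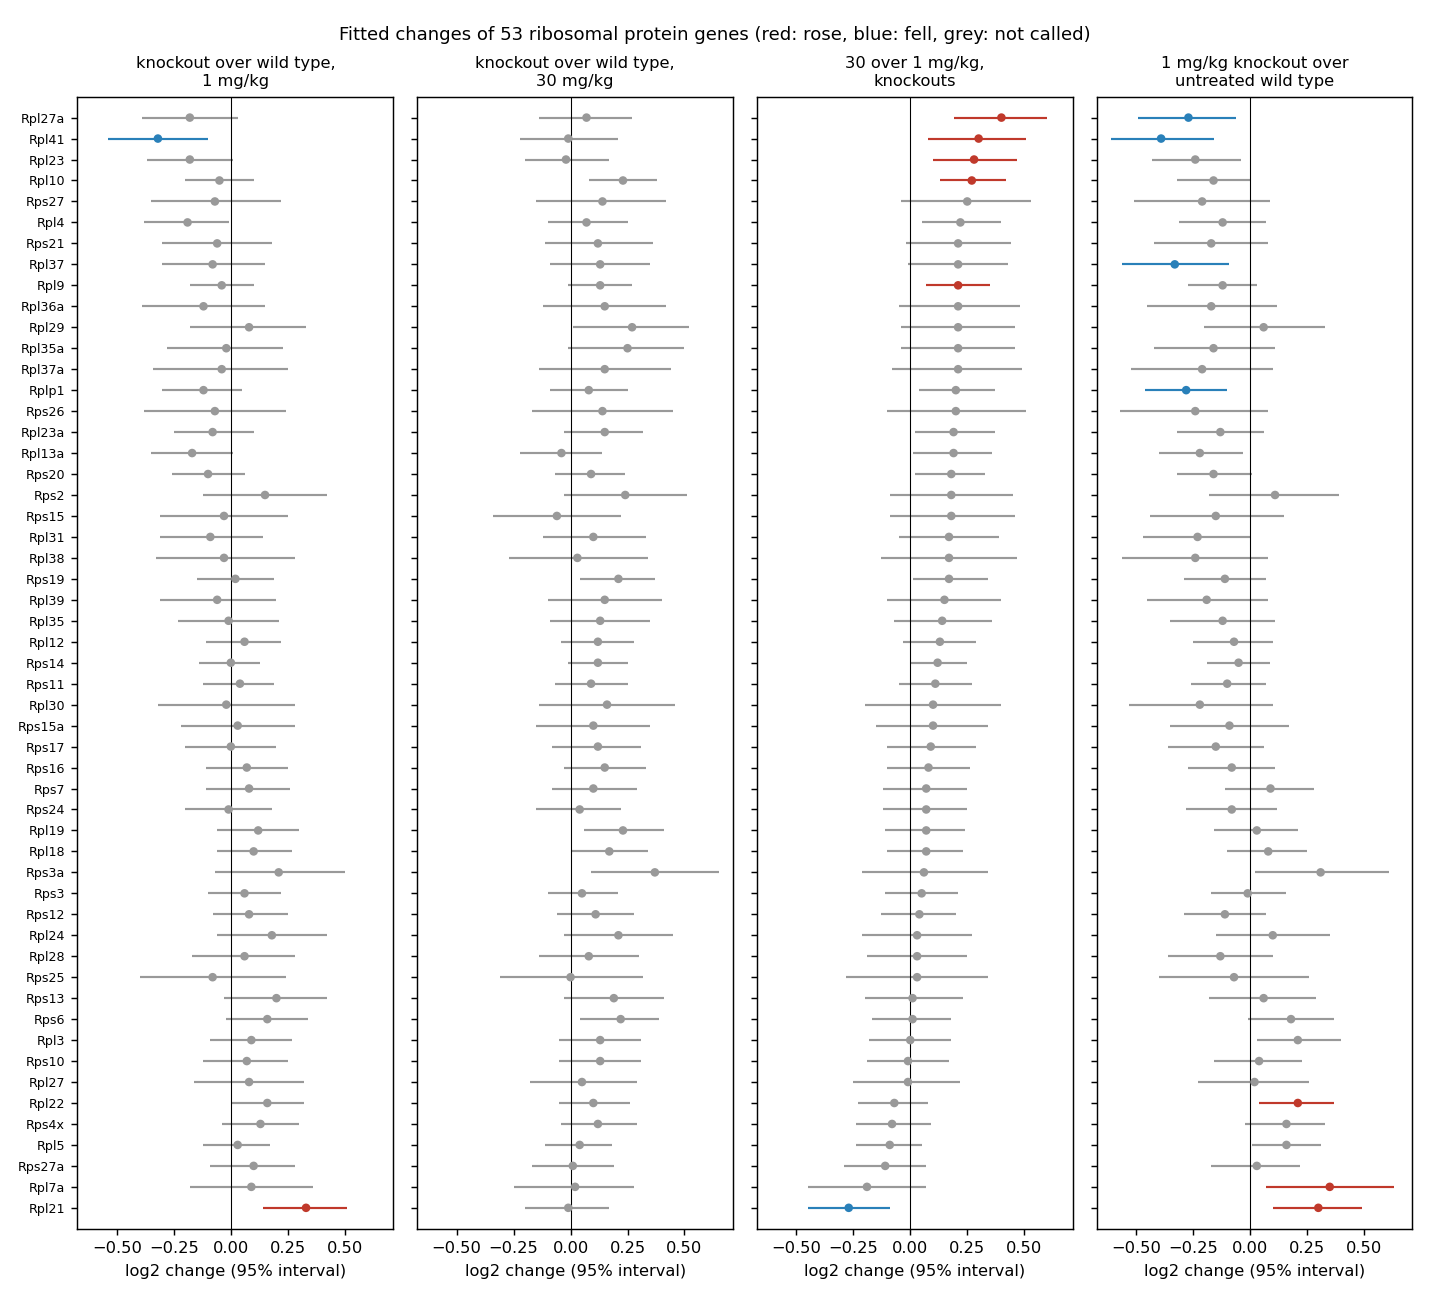
Fitted log2 change with its 95% interval for 53 of the 55 tested genes in 4 comparisons, ordered by the change at 30 over 1 mg/kg in knockouts, with genes past the limma threshold in red (rose) or blue (fell). Most intervals cross 0, and at 30 mg/kg 47 of these 53 points, drawn at 2 decimals, lie to the right of it.

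The third comparison asked what differs between doses in knockouts. In knockouts at 30 mg/kg against those at 1 mg/kg, 5 of the 55 genes rose and 1 fell (10.9%), where 20% of all tested probes were called, 9.34% rising and 10.7% falling. The median change of the 55 was 0.12, against 0 over all tested probes, and 47 lay above 0. All 6 called genes encode large-subunit proteins, and 0 of the 25 small-subunit genes passed. An unadjusted limma p under 0.05 was found for 3 of these 25 and for 4261 of the 13435 tested probes. The medians were 0.17 for the 30 large-subunit and 0.09 for the 25 small-subunit genes. The difference between the subunits was not tested.

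Rpl27a, a large-subunit protein, had the largest of these changes. Its lowest, median and highest levels were 8.23, 8.61 and 9.02 in knockouts at 30 mg/kg, against 7.91, 8.18 and 8.82 in knockouts at 1 mg/kg. All 10 arrays at 30 mg/kg lay above the mean at 1 mg/kg, though the ranges overlapped, with and without LKO-30, the highest array at 1 mg/kg. The rise was 0.4 ± 0.101, or 1.32-fold (limma adjusted p = 0.00369), 0.47 without LKO-30 (adjusted p = 0.00026), and above 0 on each of the 6 chips with both groups.

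Rpl10 measured 11.55, 11.9 and 12.38 in knockouts at 30 mg/kg, against 11.28, 11.69 and 11.95 in knockouts at 1 mg/kg, and rose by 0.27 ± 0.0739 (adjusted p = 0.00597). Of the 10 arrays at 30 mg/kg, 8 lay above the mean at 1 mg/kg, and the within-chip differences ran from 0 to 0.51. Both Rpl10 and Rpl27a passed under all 16 processing alternatives.

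Rpl23, a large-subunit protein that can also bind Mdm2, gave 12.16, 12.56 and 13.02 in knockouts at 30 mg/kg, against 12.07, 12.31 and 12.53 in knockouts at 1 mg/kg. Its change was 0.28 ± 0.0911 (adjusted p = 0.022), and 9 of 10 arrays lay above the mean at 1 mg/kg. A second Rpl23 probe, nearly as bright, changed by 0.02 (adjusted p = 0.907), so the 2 bright probes of this gene disagreed. Over all probes of Rpl23 the mean change was 0.12 (adjusted p = 0.0808), and the adjusted p was 0.0595 with no chip term, 0.0686 without the 5 dimmest arrays and 0.0801 with the authors' deposited log2 values.

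Rpl9, a large-subunit protein of narrow spread, gave 13.24, 13.54 and 13.68 in knockouts at 30 mg/kg, against 13.19, 13.32 and 13.54 in knockouts at 1 mg/kg, with the ranges overlapping. It rose by 0.21 ± 0.0698 (adjusted p = 0.0297) and by 0.19 without LKO-30 (adjusted p = 0.0557). Rpl41 stood at 14.19, 14.46 and 14.6 at 30 mg/kg, against 13.19, 14.19 and 14.37 at 1 mg/kg, and all 10 arrays lay above the mean at 1 mg/kg. Its rise of 0.3 ± 0.106 (adjusted p = 0.0403) was 0.2 without LKO-30 (adjusted p = 0.105).

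Rpl21 ran the other way, with 5.7, 5.97 and 6.32 in knockouts at 30 mg/kg against 5.96, 6.29 and 6.51 in knockouts at 1 mg/kg. It fell by 0.27 on the log2 scale (SE 0.0903, adjusted p = 0.0296) and was below 0 on each of 6 chips. Without LKO-30 the change was −0.25 (adjusted p = 0.0524). Without LKO-30 the 55 genes gave 4 rises and no fall and a median of 0.05, and without the 3 arrays 5 rises and no fall. With each array scaled to a common median instead, 6 rose and none fell. Of the 13435 tested probes 2377 were called without LKO-30, 2404 without the 3 arrays and 1847 with median scaling.

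**Figure D3:**
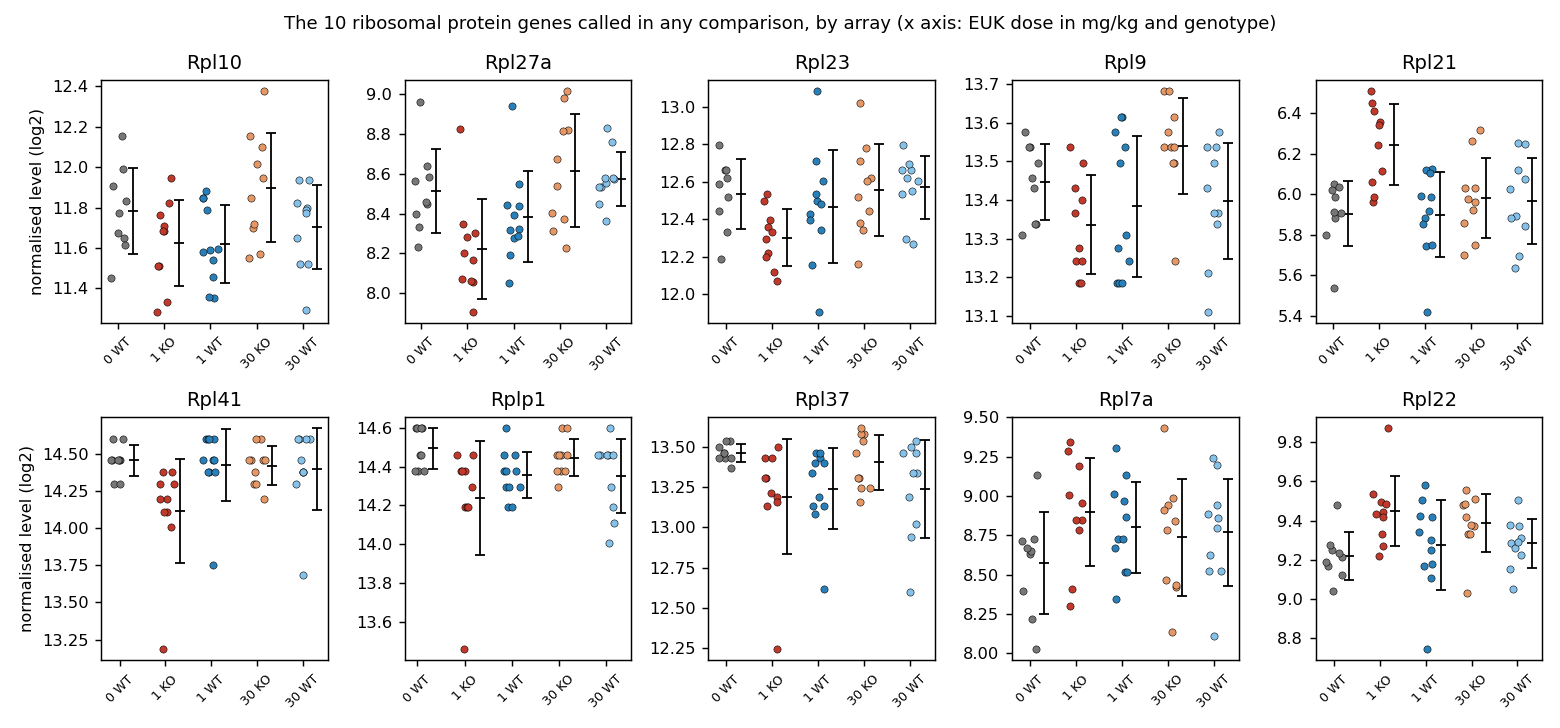
Normalised log2 level of the 10 ribosomal protein genes called in any comparison, 1 point per array by dose (mg/kg) and genotype, with the mean and SD of each group. Rpl21 is highest and Rpl27a lowest in knockouts at 1 mg/kg, with medians of 6.29 and 8.18, and the lowest Rpl41, Rplp1 and Rpl37 points there are the same array, LKO-30.

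The comparisons with untreated wild types share their 9 control arrays, so their values are given side by side and not set against each other. Chip 2 held only HWT-13 and the untreated array WT-44. In the fits without HWT-13, also those without the 3 arrays, the chip term therefore took up WT-44. That control then had no weight in the comparisons, here and below. Knockouts at 1 mg/kg differed from untreated wild types in genotype and treatment at once. Of the 55 genes, 3 rose and 4 fell (12.7%), where 32.2% of all tested probes were called, 15.8% rising and 16.3% falling. The median was −0.1, against 0.01 over all tested probes, but −0.03 without LKO-30 and 0 without the 3 arrays. This split depended on scaling: 7 rose and none fell with the authors' deposited log2 values, 3 rose and 3 fell with cyclic loess, and none rose and 25 fell with median scaling, which put the median of the 55 at −0.34 and that of all tested probes at −0.08. Of the 13435 tested probes, 4360 were called with the deposited values, 4342 with cyclic loess and 4400 with median scaling. Without LKO-30 there were 2 rises and 3 falls, without HWT-13 there were 1 and 2, and without the 3 arrays 1 and 3. Over all tested probes 4022, 4034 and 3798 were called in these settings.

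The genes that fell included those with the very bright probes, Rpl41 and Rplp1. Rpl41 lay at 13.19, 14.19 and 14.37 in knockouts at 1 mg/kg, against 14.3, 14.46 and 14.6 in untreated wild types, a change of −0.39 ± 0.113 (limma adjusted p = 0.00676) with no knockout above the control mean. Rplp1, an acidic protein of the stalk that recruits elongation factors, lay at 13.46, 14.34 and 14.46 in knockouts, against 14.37, 14.46 and 14.6 in untreated wild types. It changed by −0.28 ± 0.0897 (adjusted p = 0.0123), again with no knockout above the control mean. Rplp1 took 8 distinct levels on 50 arrays, and with the authors' deposited log2 values the changes of Rpl41 and Rplp1 were −0.04 (adjusted p = 0.854) and −0.02 (adjusted p = 0.9).

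Rpl37, a large-subunit zinc-binding protein, measured 12.24, 13.26 and 13.5 in knockouts at 1 mg/kg, against 13.37, 13.46 and 13.54 in untreated wild types, whose values were the tightest of the 5 groups for this gene. It changed by −0.33 ± 0.117 (adjusted p = 0.0269), by −0.23 without LKO-30 (adjusted p = 0.0553) and by −0.29 without HWT-13 (adjusted p = 0.054). Rpl27a measured 7.91, 8.18 and 8.82 in knockouts, against 8.23, 8.46 and 8.96 in untreated wild types. It fell by 0.27 on the log2 scale (SE 0.107, adjusted p = 0.0454), with 1 of 10 knockouts above the control mean, and by 0.24 without HWT-13 (adjusted p = 0.0812).

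Rpl21 measured 5.96, 6.29 and 6.51 in knockouts at 1 mg/kg, against 5.54, 5.91 and 6.05 in untreated wild types, and rose by 0.3 ± 0.0961 (adjusted p = 0.0142). All 10 knockouts lay above the control mean. Rpl7a, a large-subunit protein, gave 8.3, 8.9 and 9.35 in knockouts and 8.03, 8.65 and 9.13 in untreated wild types, a rise of 0.35 ± 0.139 (adjusted p = 0.0465) that was 0.32 without HWT-13 (adjusted p = 0.0788). Rpl22, an RNA-binding large-subunit protein whose loss is tolerated in mice, gave 9.22, 9.44 and 9.87 in knockouts and 9.04, 9.22 and 9.48 in untreated wild types. It rose by 0.21 ± 0.0817 (adjusted p = 0.0444), with an adjusted p of 0.0509 without LKO-30 and 0.0582 without HWT-13, and the change was −0.05 with median scaling.

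In knockouts at 30 mg/kg none of the 55 genes passed against untreated wild types. Of all tested probes 0.997% passed, 0.640% rising and 0.357% falling. An unadjusted limma p under 0.05 was found for 5 of the 55 genes and for 2032 of the 13435 tested probes. The median of the 55 was 0.04, and 0.07 without HWT-13. The smallest p belonged to Rps3a, at 0.38 ± 0.146 (adjusted p = 0.196), and Rpl3, a core large-subunit protein, at 0.21 ± 0.0922 (adjusted p = 0.249). Rpl3 lay at 12.31, 12.54 and 12.71 in these knockouts and at 12.13, 12.27 and 12.48 in untreated wild types, with 9 of 10 knockouts above the control mean.

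In wild types no ribosomal protein gene passed the threshold between doses or against untreated mice. None of the 55 genes, and 0% of all tested probes, passed at 1 mg/kg against untreated, at 30 mg/kg against untreated or at 30 against 1 mg/kg. At an unadjusted limma p under 0.05 these comparisons had 2, 2 and 0 of the 55 genes, and 1833, 904 and 523 of the 13435 tested probes. The medians of the 55 were −0.08, −0.08 and 0. Without HWT-13 the median at 30 mg/kg against untreated was −0.02, and without the 3 arrays it was −0.01 there and −0.04 at 1 mg/kg against untreated. The control WT-44 had no weight in these settings. Rpl37 and Rps12, a small-subunit protein, had the smallest p in both comparisons with untreated mice. Rpl37 gave −0.25 ± 0.112 at 1 mg/kg (adjusted p = 0.301) and −0.25 ± 0.114 at 30 mg/kg (adjusted p = 0.734), and Rps12 −0.19 ± 0.0845 (adjusted p = 0.294) and −0.18 ± 0.0861 (adjusted p = 0.734). Between the 2 doses the 95% interval stayed within 0.5 of 0 for all 55 genes, and the smallest p belonged to Rps15, at 0.21 ± 0.138 (adjusted p = 1), and Rpl27a, at 0.15 ± 0.102 (adjusted p = 1).

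Members with roles outside the core of the ribosome gave no call other than those above. Rps6, the small-subunit protein phosphorylated by the S6 kinases below mTORC1, had medians of 11.32 in knockouts and 11.2 in wild types at 1 mg/kg, and of 11.29 in knockouts and 11.12 in wild types at 30 mg/kg. Its genotype changes were 0.16 ± 0.0886 at 1 mg/kg (limma adjusted p = 0.224) and 0.22 ± 0.0879 at 30 mg/kg (adjusted p = 0.306), and at each dose 9 of 10 knockouts exceeded the mean of their wild types. Rpl5, which holds the smallest ribosomal RNA and, unassembled, binds Mdm2, changed by 0.03 ± 0.0729 at 1 mg/kg and by 0.04 ± 0.0723 at 30 mg/kg (adjusted p = 0.857 and 0.911).

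Rpl38, needed in mouse embryos for translation of a subset of Hox mRNAs, changed by −0.03 ± 0.152 at 1 mg/kg and by 0.03 ± 0.15 at 30 mg/kg (limma adjusted p = 0.937 and 0.968). Rps25, used by viral internal ribosome entry sites, changed by −0.08 ± 0.159 and 0 ± 0.157 (adjusted p = 0.787 and 0.998). Both standard errors were wide, and both genes lay far below their group on LKO-30. Rps27a, made as a fusion with ubiquitin, changed by 0.1 ± 0.0911 and 0.01 ± 0.0904 (adjusted p = 0.522 and 0.988). Fau, a ubiquitin-like fusion with a small-subunit protein that the symbol rule does not catch, changed by 0.02 ± 0.11 and 0.24 ± 0.109 (adjusted p = 0.934 and 0.392).

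Other sets of abundant or ribosome-related genes are given beside these, as counts with no test of the difference. Of 67 mitochondrial ribosomal protein genes, 15 rose and 3 fell in knockouts against wild types at 1 mg/kg (26.9%, median 0.1), and 1 rose and 16 fell in knockouts at 30 against 1 mg/kg (25.4%, median −0.1). Of 32 proteasome subunit genes, 12 rose and none fell in the first comparison (37.5%, median 0.17), and none rose and 8 fell in the second (25%, median −0.11). The cytosolic ribosomal protein genes had 3.64% and 10.9% called there, with medians of 0.02 and 0.12. Of all tested probes 20.9% were called in the first comparison (10.8% rising, 10.1% falling) and 20% in the second (9.34% rising, 10.7% falling). In the second, the shares of the mitochondrial and proteasome genes called in either direction were thus not far above that of all tested probes. On LKO-30 the mean level of the mitochondrial ribosomal protein genes was 7.4, the lowest of its group, whose median was 7.77, and the proteasome mean was 8.1 against a group median of 8.19.

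**Figure D4:**
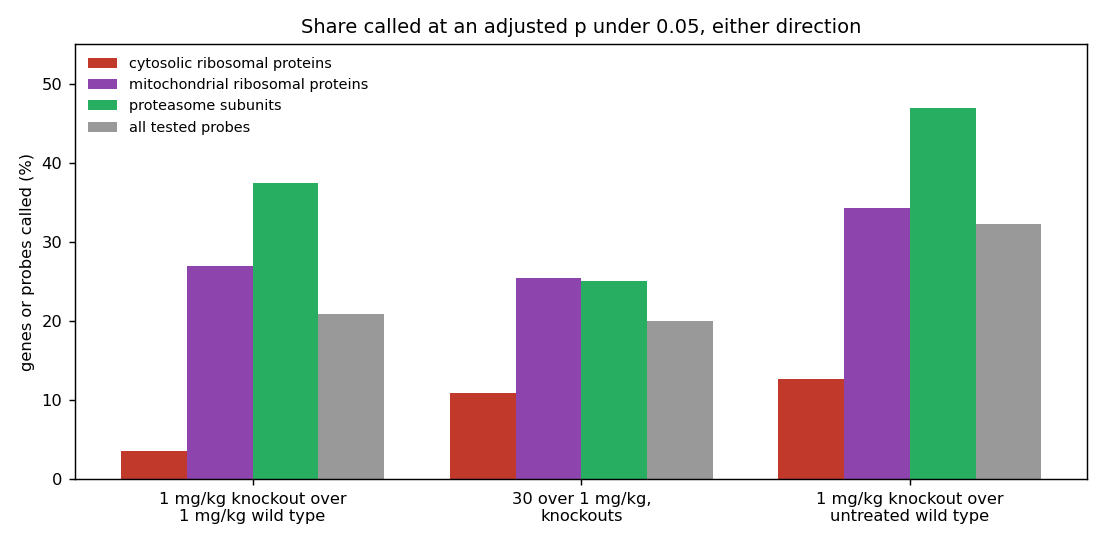
Share of genes past the limma threshold in either direction, in percent, in 3 comparisons, for cytosolic ribosomal proteins (55), mitochondrial ribosomal proteins (67), proteasome subunits (32) and all 13435 tested probes. The cytosolic ribosomal proteins have the lowest bar in each comparison, at 3.64% in knockouts over wild types at 1 mg/kg, 10.9% in knockouts at 30 over 1 mg/kg and 12.7% in knockouts at 1 mg/kg over untreated wild types. All tested probes stand at 20.9%, 20% and 32.2%.

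The other mRNAs of the TOP class encode translation factors and related proteins. Of 13 tested, 2 rose and none fell in knockouts against wild types at 1 mg/kg, or 15.4%, below the 20.9% of all tested probes, so the calls are those of single genes. Btf3, a partner of nascent chains at the ribosome, rose by 0.35 ± 0.086 (limma adjusted p = 0.00194), and Hnrnpa1, an RNA-binding protein, by 0.42 ± 0.147 (adjusted p = 0.0362). Against untreated wild types Btf3 and Hnrnpa1 rose by 0.34 and 0.72, and Pabpc1, the poly(A)-binding protein, by 0.5 ± 0.124 (adjusted p = 0.00149). Btf3 fell by 0.24 on the log2 scale at 30 against 1 mg/kg in knockouts (adjusted p = 0.0376).

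Of 23 genes of ribosome assembly and ribosomal RNA synthesis, 3 rose and 2 fell in knockouts against wild types at 1 mg/kg, or 21.7%, near the 20.9% of all tested probes, so the count is no result about the list. Nob1, the nuclease that matures small-subunit RNA, rose by 0.41 ± 0.0876 (adjusted p = 0.000445). Eif6, which keeps new large subunits from joining early, rose by 0.36 ± 0.0762 (adjusted p = 0.000376), and Polr1a, the largest subunit of RNA polymerase I, by 0.28 ± 0.0944 (adjusted p = 0.0266). Pes1 and nucleolin (Ncl), nucleolar assembly factors, changed by −0.46 ± 0.122 (adjusted p = 0.00453) and −0.32 ± 0.086 (adjusted p = 0.0048). Nob1, Polr1a and Eif6 were also the 3 genes of this list that fell at 30 against 1 mg/kg in knockouts, by 0.46, 0.34 and 0.24 on the log2 scale.

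Of 13 genes of mTORC1 and its control of TOP mRNAs, 2 rose and 2 fell in knockouts against wild types at 1 mg/kg, or 30.8% against 20.9% of all tested probes. Eif4ebp1, the translation repressor that mTORC1 inactivates, averaged 7.14 in knockouts and 5.91 in wild types, a rise of 1.27 ± 0.169 (limma adjusted p = 1.72e-07). Rheb, the small GTPase that activates mTORC1, rose by 0.4 ± 0.112 (adjusted p = 0.0066). Rps6ka1 and Eif4ebp2 changed by −0.54 ± 0.141 (adjusted p = 0.00379) and −0.42 ± 0.155 (adjusted p = 0.048). At 30 against 1 mg/kg in knockouts Eif4ebp1 and Rheb fell by 0.62 and 0.5 on the log2 scale, and Eif4ebp1 still averaged 6.54 in knockouts at 30 mg/kg against 5.76 in untreated wild types (change 0.77, adjusted p = 0.0217).

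Of 6 tested paralogs of ribosomal proteins, 3 rose in knockouts against wild types at 1 mg/kg, where 10.8% of all tested probes rose. With only 6 genes the calls are those of single genes. Rpl7l1, expressed broadly, rose by 0.29 ± 0.0782 (adjusted p = 0.00528) and fell by 0.39 on the log2 scale at 30 against 1 mg/kg in knockouts (adjusted p = 0.00019). Rps4l and Rpl3l, the second a paralog of skeletal and heart muscle, rose by 0.29 and 0.27, but their probes were above background on 49 and 43 arrays only, close to the limit of detection. Rpl3l also passed at 30 mg/kg between genotypes, at 0.31 ± 0.0797 (adjusted p = 0.0476).

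Some markers of other cells and of terminals were called in the same comparisons. Of all tested probes 20.9% were called in knockouts against wild types at 1 mg/kg (10.8% rising, 10.1% falling). At 30 against 1 mg/kg in knockouts 20% were (9.34% rising, 10.7% falling). The 9 synaptic terminal markers summed to 6182 to 17120 in knockouts at 1 mg/kg, against 7136 to 20080 in wild types at 1 mg/kg, with 5 falling and none rising. At 30 against 1 mg/kg in knockouts, 8 of 9 rose, with sums of 10070 to 22130 at 30 mg/kg. Of the 12 microglial markers 4 fell in knockouts against wild types at 1 mg/kg, with sums of 3558 to 6041 in knockouts and 3434 to 7464 in wild types, and none passed between doses in knockouts. Of 10 astrocyte markers 3 rose and 3 fell in knockouts against wild types at 1 mg/kg, with sums of 20060 to 35770 in knockouts and 20680 to 33820 in wild types. Of 10 myelin markers none rose and 2 fell in that comparison, a share near that of all tested probes. Between doses in knockouts 2 astrocyte markers rose and 4 fell, and 1 myelin marker rose. In knockouts at 1 mg/kg against untreated wild types 8 of 9 synaptic markers fell (median −0.9), with sums of 6182 to 17120 in knockouts and 10690 to 27730 in untreated wild types. In that comparison 5 of 10 myelin markers fell, 4 of 10 astrocyte markers rose and 1 fell, and 3 of 12 microglial markers rose and 1 fell. Of all tested probes 32.2% were called there, 15.8% rising and 16.3% falling, so the microglial count is no result about that list. The part of these markers in the changes of ribosomal protein genes was not tested.

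After group and chip were removed, the ribosomal protein genes varied together across arrays, but less so without the 3 arrays that stood apart. The first component of their residuals held 49.1% of the variance, and 24.1% without the 3 arrays, against 19.2% and 20% for all tested probes and 32.7% and 29.9% for the mitochondrial ribosomal proteins. The proteasome subunits gave 22% and 22.1%. The median correlation between 2 members was 0.324 over 50 arrays, 0.225 without the 3 arrays, and 78.9% of pairs were positive. For the mitochondrial ribosomal proteins the median was 0.192 and 0.195, with 78.1% of pairs positive. For the proteasome subunits it was 0.0817 and 0.093, with 63.3%. Varying together was thus not particular to the cytosolic ribosomal proteins. These are descriptions of arrays that share chips and normalisation. The count of 50 of 55 genes above 0 at 30 mg/kg is therefore not a count of 50 separate observations.

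The spread of single genes after group and chip had a median SD of 0.203, close to the 0.204 of all tested probes. Rps25 (0.367), Rps26 (0.359) and Rpl38 (0.35) had the widest spread, which was 0.274, 0.181 and 0.201 without the 3 arrays. Rps14 (0.129) and Rpl9 (0.144) were among the narrowest. Rps14 changed by 0.12 ± 0.0652 in knockouts against wild types at 30 mg/kg (limma adjusted p = 0.482). Rps26, Rpl38, Rpl37a, Rps27 and Rpl36a carried the largest weights on the first component and Rps2, Rpl3 and Rpl5 the lowest.

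**Figure D5:**
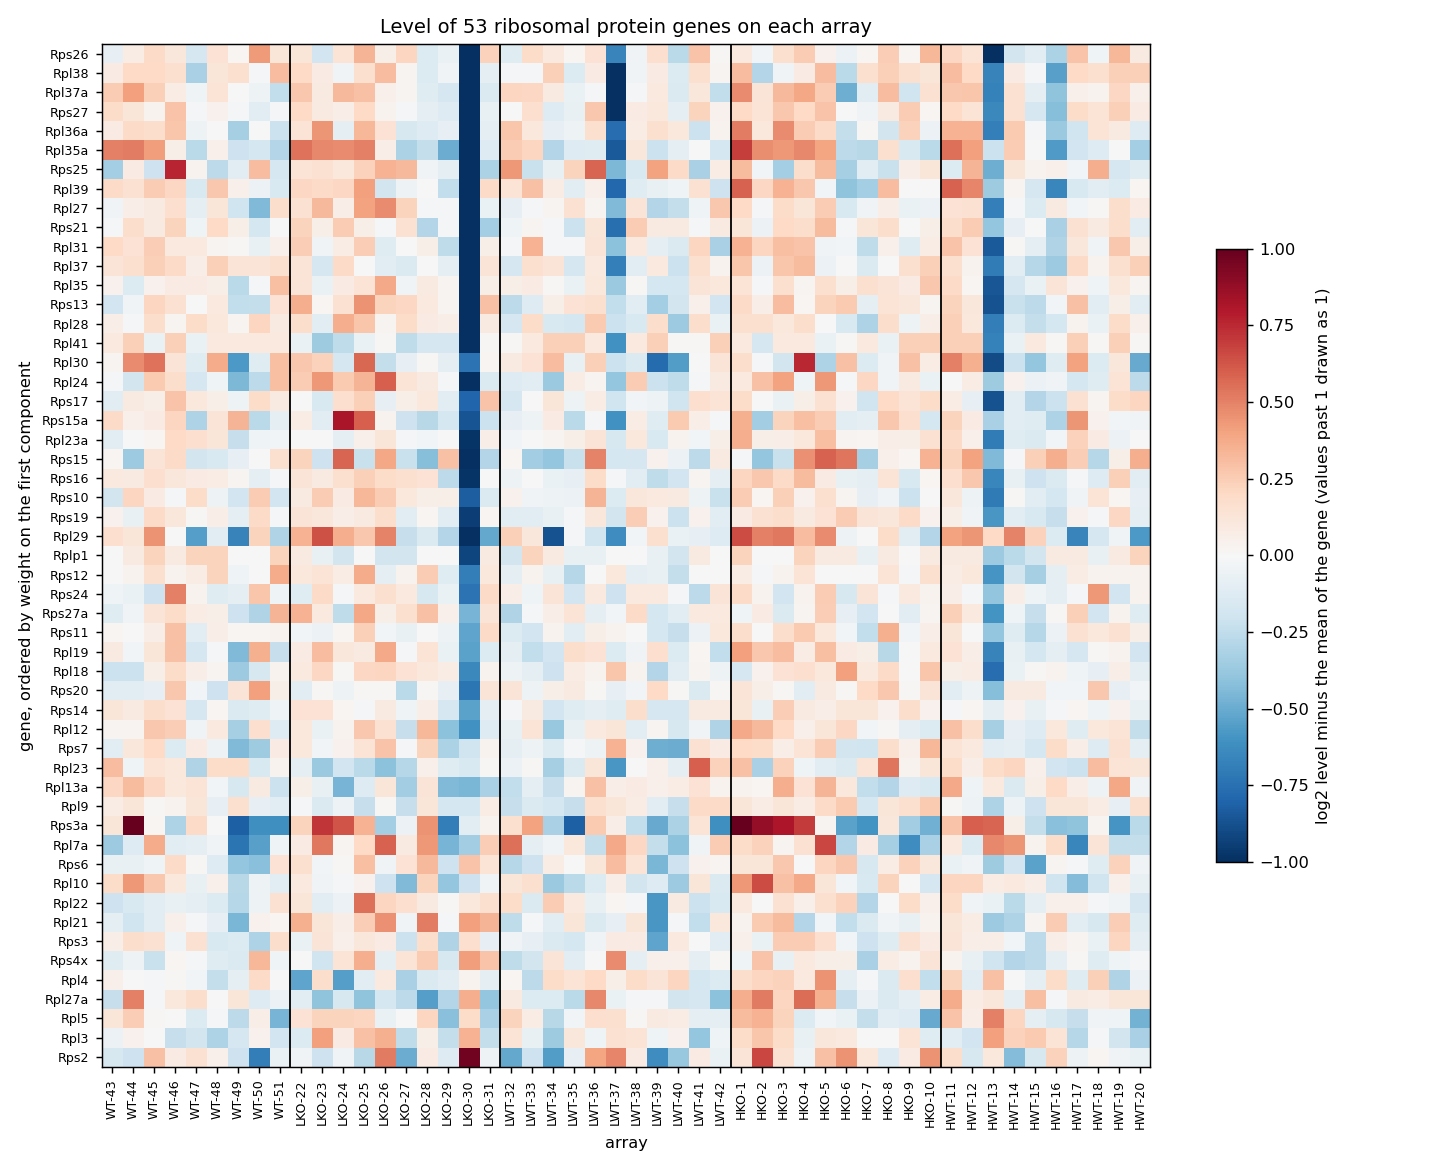
Log2 level of 53 of the 55 genes (rows, ordered by weight on the first component) on each of the 50 arrays (columns, grouped by lines), minus the mean of the gene. LKO-30 is dark blue for most upper rows and red for Rps2 at the bottom, and HWT-13 and LWT-37 repeat the pattern more weakly.

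Of the 55 tested genes, those with more than 1 probe above background allowed a check within the array. The second Rpl31 probe, at a mean signal of 259.7 against 5221 for the one used here, fell by 0.32 in knockouts against wild types at 1 mg/kg (limma adjusted p = 0.00283), while the probe used changed by −0.09. The second Rps24 probe, at 75.21 against 9434, changed by −0.36 (adjusted p = 0.0022), while the probe used changed by −0.01. Probe sequences were not used here, so whether these probes read other transcript ends, pseudogenes or other genes was not tested. Ribosomal protein genes have many processed pseudogenes of near-identical sequence, and any of the signals above may include them.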

How the data were processed

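Average bead signals (intensity) of 25697 probes on 50 arrays were used as deposited, per the file headers, from RNA extracted with Trizol, amplified and biotin-labelled, per the labels. The authors' deposited value table holds log2 values (column medians 6.015 to 6.031, slope on log2 signal 0.951 to 1.07, lowest r 0.9985). How it was normalised is not stated in the labels or headers, and it served as an alternative.

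In limma 3.58.1 (R 4.3.3) the signals were corrected with normexp (saddle, offset 16), quantile normalised and log2 transformed. The file held no detection p-values, so background was taken as the lower signal peak of an array (48.63 to 70.8) plus 1.645 SD, and the 13435 probes above it on at least 9 arrays were tested. A model with 5 groups and 7 chips was fitted to all 50 arrays, with variances moderated by empirical Bayes (prior degrees of freedom 7.36, residual 39). P-values were adjusted by the Benjamini-Hochberg method over all tested probes and called under 0.05. Values after ± are SDs for levels and SEs for fitted changes. The number of arrays limits the precision. The scripts were tested on simulated data.

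The members, the lists of other genes and the rule for named genes were chosen with earlier results of these data known. The rule named every called member, the 2 members of smallest p in a comparison without a call, members with a known role, and the 3 of widest and narrowest spread, plus called genes of the pathway lists (at most the 4 of smallest p per list and comparison). The alternatives concerned the chip term, background, offset, scaling, filter, arrays used, probes per gene and the authors' values. Values of some single genes are not reported here; they stayed in the fits and counts.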

Additional observations from a re-analysis of the deposited data

Results flagged for a closer look

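A level that lay far from the other arrays of its group was looked for in 92 combinations of a group and a gene or the mean level, and 18 were found. Chance alone flags about 1 in 20 groups, but some of these genes were chosen for their wide spread and many of the values share 1 array, so the 18 cannot be read against that rate. Groups of more than 10 arrays, and so the wild types at 1 mg/kg, were not looked at. Of the 18, 10 were on LKO-30, a knockout at 1 mg/kg. It was lowest of its group in the mean level over the 55 genes (10.53), Rpl41 (13.19), Rplp1 (13.46), Rpl37 (12.24), Rps12 (12.52), Rpl38 (11.92), Rps25 (8.56), Rps26 (9.87) and Rps14 (12.53), and highest in Rpl27a (8.82). On HWT-13, a wild type at 30 mg/kg, the mean level (10.85), Rpl41 (13.68) and Rps26 (10.58) lay far below the group. HKO-7, a knockout at 30 mg/kg, was low in Rpl9 (13.24) and Rpl22 (9.03), and LKO-25, a knockout at 1 mg/kg, was high in Rpl22 (9.87). Of the untreated wild types, WT-49 was low in Rpl21 (5.54) and WT-47 in Rpl38 (13.05).

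LKO-30 and HWT-13 also gave the lowest mean level of their groups for the ribosome assembly list, at 6.54 and 6.69, against group medians of 6.81 and 6.81, while the other TOP mRNAs on them were high, at 9.54 and 9.65 against 9.29 and 9.26. LWT-37 was highest of its group for that TOP list, at 9.44 against 9.26. What set these arrays apart was not tested.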

How the results depend on the processing

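Of the counts of called members, 127 stayed within 1.5 times the value given above over 16 alternatives and 9 comparisons, and 17 did not. Most of the 127 came from comparisons with 0 called, where 0 again was scored as unchanged, so they say little about stability. Most of the 17 came from the comparisons with calls. Of the medians, 142 moved by less than the SD between arrays (0.145) and 2 by more. With the main processing no median exceeded 0.12 in size, so a median that shrank to 0 still counted among the 142. The 142 therefore say little about stability either. In knockouts at 1 mg/kg over untreated wild types, for example, the median went from −0.1 to 0 without the 3 arrays that stood apart. For knockouts over wild types at 1 mg/kg (2 called) the count was 1 with median scaling, cyclic loess, only the arrays of the comparison or the authors' values, 4 without the 5 dimmest arrays and 6 without the 3 arrays that stood apart. At 30 mg/kg (0 called) it was 1, Rpl10, with cyclic loess or the authors' values, and for the interaction (0 called) 1, again Rpl10, with the authors' values. For 30 over 1 mg/kg in knockouts (6 called) it was 3 with no filter or only the arrays of the comparison and 2 without the 5 dimmest arrays. For knockouts at 1 mg/kg over untreated wild types (7 called) it was 25 with median scaling, 4 with no filter, 1 with only the arrays of the comparison, 3 without HWT-13 and 4 without the 3 arrays. In the last 3 of these settings the control WT-44 was alone on chip 2, so the chip term took up its values. Of the 13435 tested probes 4322 were called there with the main processing and 4400 with median scaling. Median scaling moved the median of the members to −0.34 there and to −0.32 in wild types at 1 mg/kg over untreated, and turned Rpl22 to −0.05 in the first. The causes of these moves were not tested. Of the single calls, 180 passed again under an alternative and 60 did not, the reversed Rpl22 among them. Rpl21 at 1 mg/kg between genotypes, and Rpl10 and Rpl27a between doses in knockouts, passed under all 16. No paired analysis was possible because no replicate number is shared between groups. Dim probes (Rpl21) lie near background, and the brightest (Rpl41, Rplp1) are set by rank.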

Other observations

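The genes at or above the median of the other knockouts at 1 mg/kg on LKO-30 were Rpl3, Rpl4, Rpl5, Rpl21, Rpl23, Rpl27a, Rps2, Rps3, Rps4x and Rps6, with differences of 0.03 (Rpl5 and Rpl23) to 1.01 (Rps2), whereas Rps26, Rpl37a, Rps27 and Rpl38 differed by −1.91, −1.75, −1.52 and −1.48. On LWT-37 Rps27, Rpl38 and Rpl37a differed by −1.27, −1.13 and −1.04 from the other wild types at 1 mg/kg and Rps2 by 0.63, and on HWT-13 Rps26 and Rpl38 differed by −1.16 and −0.86 and Rpl3 by 0.52. Transcript length was not used here, and whether it had a part in these differences was not tested.

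Among probes with a mean log2 level of at least 12, 4.55% of the 22 ribosomal protein genes and 26.8% of the other 71 probes were called in knockouts against wild types at 1 mg/kg. At a level of 10 to 12 the shares were 0% of 20 and 35% of 380, and under 10 they were 7.69% of only 13 and 20.5% of 12929. Between doses in knockouts the shares were 13.6%, 5% and 15.4% of the ribosomal protein genes and 28.2%, 35.3% and 19.6% of the other probes, from the brightest to the dimmest class.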
